A study of Homo sapiens with 4 samples.

Results

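The SLC7 and SLC3 genes encode carriers that move amino acids through the plasma membrane. The 10 genes described here, of 61806 genes in the authors' table, were chosen by symbol as the cationic amino acid transporters and the heterodimeric exchangers with their heavy chains. They were examined in JJ012, a human chondrosarcoma line, and in 143B, a human osteosarcoma line. Cells of both lines were kept detached, either untreated or with melatonin, the pineal hormone, at 1 mM for 72 h, and each of these 4 conditions was sequenced as 1 library. No condition was repeated, the spread between cultures is therefore unknown, and no value below tests the effect of melatonin.

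The members fall into 3 kinds by role. SLC7A1, SLC7A2 and SLC7A3 (CAT1, CAT2 and CAT3) carry arginine, lysine and ornithine without a partner. SLC7A5 and SLC7A8 (LAT1 and LAT2) exchange large neutral amino acids such as leucine and glutamine, SLC7A6 and SLC7A7 (y+LAT2 and y+LAT1) exchange cationic for neutral amino acids, and SLC7A11 (xCT) imports cystine in exchange for glutamate, which supplies cysteine for glutathione. These 5 are light chains that reach the cell surface bound by a disulfide bridge to the heavy chain SLC3A2 (CD98hc, 4F2hc). The other heavy chain, SLC3A1 (rBAT), belongs to the cystine carrier of kidney and intestine. SLC7A5, SLC7A11 and SLC3A2 are abundant in many tumours, and several members are known targets of ATF4, the transcription factor of the amino acid response.

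The libraries held between 15889564 and 19218343 counts, so that 3 counts, treated here as the floor of detection, corresponded to between 0.156 and 0.189 CPM (counts scaled to the library total). Between 13198 and 14477 genes per library reached 1 FPKM, the CPM of a gene per kilobase of its exonic length. The defining matrix genes of cartilage were near 0 in all 4 libraries, with at most 0.11 FPKM for ACAN and 0.04 for COL2A1, and of 6 cartilage markers SOX9 alone reached 1 FPKM, at 6.16 to 15.48. Of 7 bone markers, 2 or 3 reached 1 FPKM per library, among them RUNX2, while SP7 and IBSP stayed at or below 0.13. Their summed level was higher in JJ012, at 94.7 and 68.2 FPKM without and with melatonin, than in 143B, at 6.97 and 5.07, mainly through SPP1, which was at 79.39 and 64.5 FPKM in JJ012 and at 0.40 and 0.53 in 143B. COL1A1 was at 10.92 FPKM in untreated JJ012 and at 0.49 in untreated 143B. The summed bone markers thus went against the labels through SPP1 and COL1A1, but not all markers of the list did. In the controls of JJ012 and 143B, RUNX2 was at 3.02 and 4.28 FPKM, BGLAP at 0.81 and 1.44, and ALPL at 0.35 and 0.36. The names chondrosarcoma and osteosarcoma are taken from the labels alone. The libraries of JJ012 also differed in other respects. The summed level of 4 mesenchymal markers was 1550 FPKM without and 739 FPKM with melatonin, COL1A2 was at 12.48 and 0.14 FPKM, and the leukocyte gene CD3E was at 9.73 and 3.28, with PTPRC at or below 0.14. The share of counts from mitochondrially encoded genes was 6.78% and 4.35%. What part these differences have in the values below was not tested, and in such bulk libraries fewer cells of a kind cannot be told apart from less RNA per cell.

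A gene was counted as measured in a comparison if either library held 1 FPKM of it or more, and 7 of the 10 members met this in both lines. These were SLC3A2, SLC7A5, SLC7A6, SLC7A8, SLC7A11, SLC7A1 and SLC7A2. SLC7A3, SLC7A7 and SLC3A1 stayed below 1 FPKM in each library. SLC7A5 led in 143B and SLC3A2 led in JJ012. In the 143B control the order by FPKM was SLC7A5, SLC3A2, SLC7A1, SLC7A2, SLC7A6, SLC7A11 and SLC7A8, where the 95% Poisson intervals of SLC3A2 and SLC7A1, and of SLC7A2 and SLC7A6, overlapped. In the JJ012 control the order was SLC3A2, SLC7A5, SLC7A1, SLC7A8, SLC7A6, SLC7A2 and SLC7A11, with overlap between the last pair alone. After melatonin, SLC7A2 and SLC7A11 stood at the fourth and the fifth place in JJ012, and the intervals of SLC7A1 and SLC7A2, and of SLC7A6 and SLC7A8, overlapped. In melatonin-treated 143B, SLC7A1 and SLC3A2 could not be ordered beyond their intervals. Such intervals hold only the error of counting, and PCR copies of a molecule make them too narrow.

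**Figure D1:**
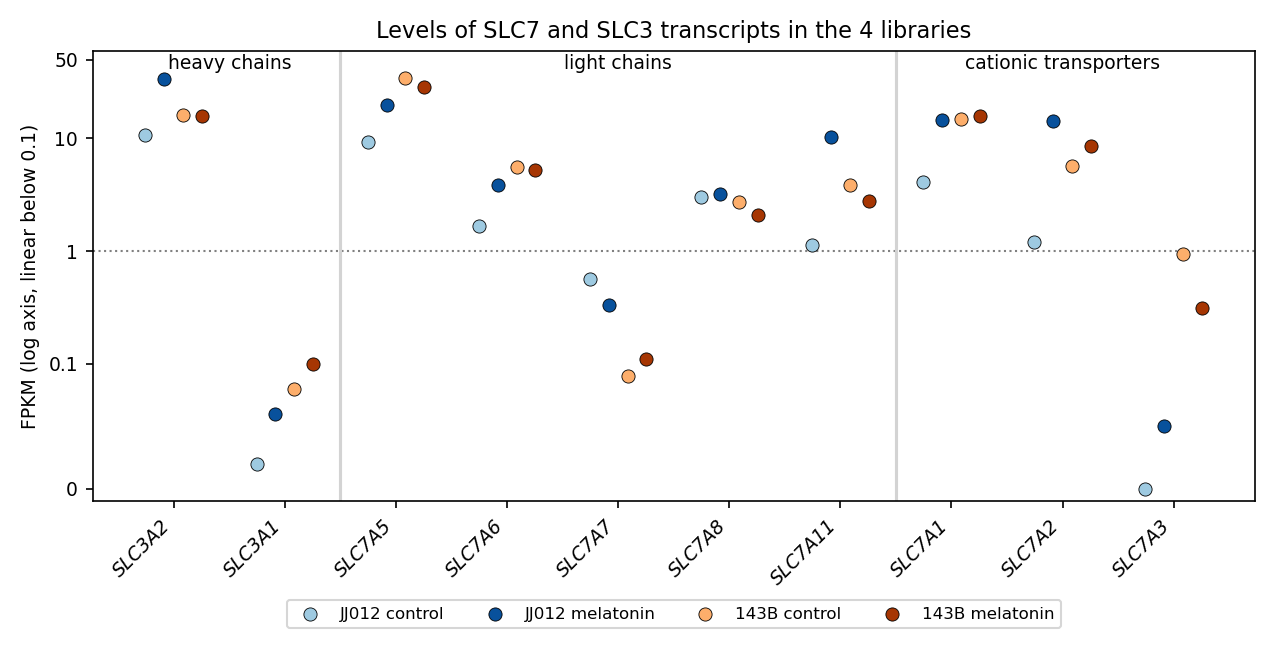
FPKM of each of the 10 members (x axis, grouped by role) in the 4 libraries (points, 1 library each), on a log axis that is linear below 0.1, with a dotted line at 1 FPKM. For SLC3A2, SLC7A11 and SLC7A2 the melatonin-treated JJ012 library is the highest of the 4, and SLC3A1, SLC7A7 and SLC7A3 lie below the line in all libraries.

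Melatonin was compared with the control within JJ012 to describe how the carriers stood when cells in suspension were treated. For a log2 fold change, 1 was added to each FPKM before the ratio was taken, which understates changes at low FPKM, and a gene is said to rise or fall when this value reached 0.58, the threshold of fold change in the study. In JJ012, 6 of the 7 measured members rose and 0 fell. Of all 15794 genes measured in JJ012, 19.6% rose and 18.6% fell. With TPM in place of FPKM, the median gene moved from 0.01 to 0.27 and the split became 34.6% and 15.7%, and 6 members still rose. The median log2 fold change was 1.58 for the 7 members and 0.01 for all measured genes. For each member, the ratio of CPM is given with its exact (Clopper-Pearson) 95% interval.

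SLC3A2, the heavy chain shared by all 5 light chains, lies on chromosome 11 from 62856004 to 62888880. It had 1307 counts (10.64 FPKM) in the JJ012 control and 3501 counts (33.93 FPKM) after melatonin. The ratio was 3.19-fold, with an interval of 2.99 to 3.40. It was the most abundant member of both JJ012 libraries. SLC3A1, the heavy chain of kidney and intestine, had 3 and 6 counts in JJ012, a ratio of 2.38 with an interval of 0.508 to 14.7 that leaves its direction undetermined. Its gene overlaps PREPL on the other strand, which had 1491 and 1474 counts in these libraries.

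Among the light chains, SLC7A11 stood furthest from its control. The cystine carrier had 209 counts (1.13 FPKM) in the JJ012 control and 1612 counts (10.35 FPKM) after melatonin, 9.18-fold higher, with an interval of 7.95 to 10.7. Its gene lies on chromosome 4 from 138164097 to 138242349 and overlaps SLC7A11-AS1 on the other strand. That antisense gene had 0 and 51 counts, and without a stated strand setting its reads cannot be told apart from those of SLC7A11 where they overlap. SLC7A5, the main leucine carrier, went from 9.22 to 19.75 FPKM, and its ratio had an interval of 1.97 to 2.33. SLC7A6 had 243 counts (1.67 FPKM) and 474 counts (3.87 FPKM), 2.32-fold higher, with an interval of 1.99 to 2.72. SLC7A6 overlaps SLC7A6OS on the other strand, which went from 129 to 244 counts.

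The light chains did not all rise in JJ012. SLC7A8 had 344 counts (2.99 FPKM) in the control and 313 counts (3.24 FPKM) after melatonin, and the interval of its ratio, 0.926 to 1.27, included 1. SLC7A7, found mainly in kidney, intestine and white blood cells, had 58 and 29 counts, which is 0.56 and 0.33 FPKM. It was below 1 FPKM in both JJ012 libraries and so was not counted. Its ratio by CPM had an interval of 0.367 to 0.945, below 1 in its whole range. SLC7A8 and SLC7A7 were thus the members with over 10 counts in JJ012 that were not higher than the control beyond counting error.

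Of the cationic transporters, SLC7A2 differed most. SLC7A2 lies on chromosome 8 from 17497088 to 17570573. It had 183 counts (1.20 FPKM) in the JJ012 control and 1812 counts (14.20 FPKM) after melatonin, 11.8-fold higher, with an interval of 10.1 to 13.8. SLC7A1, the widely expressed arginine carrier, had 608 counts (4.12 FPKM) and 1821 counts (14.67 FPKM), 3.57-fold higher, with an interval of 3.25 to 3.91. The FPKM of SLC7A1 and SLC7A2 were thus close to each other after melatonin, where SLC7A1 had been the higher in the control. SLC7A3, the transporter known from brain, had 0 and 2 counts in JJ012, both at or under the floor, and no ratio is given.

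In 143B the same comparison gave small values for the members. Of the 7 measured members, 0 rose and 0 fell, while 6.09% of the 14135 genes measured in 143B rose and 6.65% fell. The median log2 fold change was -0.09 for the members and 0.03 for all measured genes. SLC3A2 had 1651 counts (16.26 FPKM) in the control and 1749 counts (15.94 FPKM) after melatonin, and the interval of its ratio, 0.916 to 1.05, included 1. That of SLC7A6, with 676 and 677 counts (5.61 and 5.20 FPKM), was 0.832 to 1.03 and also included 1.

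The remaining measured members of 143B differed from their control by more than counting error, but their log2 fold changes of FPKM + 1 stayed under the threshold. SLC7A2 was nearest to it, with 719 counts (5.72 FPKM) and 1168 counts (8.61 FPKM), a log2 fold change of 0.52 and a ratio of CPM with an interval of 1.37 to 1.65. With a pseudocount of 0.1 FPKM in place of 1, SLC7A2 reached the threshold, at 0.58. Its log2 ratio of CPM, with nothing added, was 0.59 and so just past 0.58. SLC7A1 had 1810 and 2108 counts (14.82 and 15.97 FPKM), with an interval of 1.01 to 1.15. These 2 cationic transporters were higher with melatonin in both lines, SLC7A1 of 143B by a small value. Its log2 fold change was 0.10 and ranged from 0.05 to 0.12 under other scalings and settings, for which no interval is given.

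Light chains of 143B stood lower than their control. SLC7A11 had 587 counts (3.83 FPKM) and 462 counts (2.79 FPKM), 1.37-fold lower, with an interval of the ratio of 0.644 to 0.824. SLC7A5 had 2626 counts (34.69 FPKM) and 2320 counts (28.37 FPKM), 1.22-fold lower, with an interval of 0.773 to 0.865. SLC7A8 had 262 and 216 counts (2.75 and 2.10 FPKM), with an interval of 0.634 to 0.917. The ratios of these 3 lay below 1 with their whole interval, within the log2 threshold.

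The weakly expressed members of 143B rested on few counts. SLC7A3 had 34 counts (0.94 FPKM) in the control and 12 counts (0.31 FPKM) after melatonin, 3.06-fold lower, with an interval of the ratio of 0.154 to 0.647. It was below 1 FPKM and so was not counted among the measured genes. SLC7A7 had 8 and 10 counts and SLC3A1 had 8 and 11, and the intervals of both ratios included 1.

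**Figure D2:**
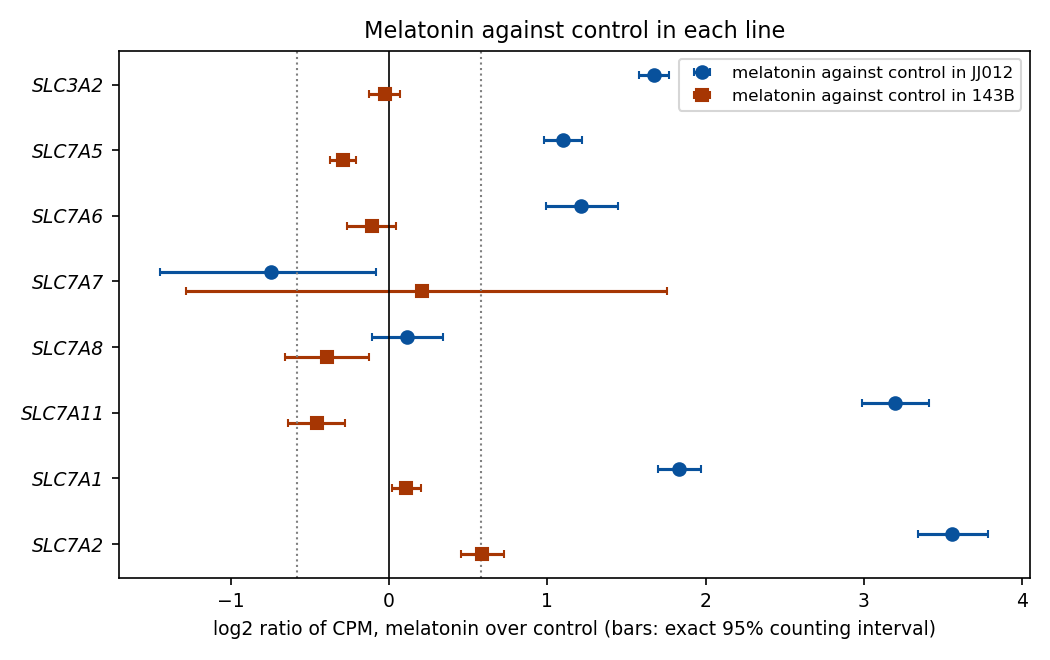
Log2 ratio of CPM, melatonin over control (x axis), for the 8 members with more than 3 counts in each library (y axis), with points for JJ012 in blue and for 143B in brown, bars for the exact 95% counting interval and dotted lines at 0.58 and -0.58. The blue points of SLC3A2, SLC7A5, SLC7A6, SLC7A11, SLC7A1 and SLC7A2 lie between 1.10 and 3.56. The highest brown point, that of SLC7A2 at 0.59, lies just past the dotted line.

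The difference between the lines was taken as the log2 ratio of JJ012 less that of 143B, for the 8 members with more than 3 counts in each library, with a Wald interval from the 4 counts. It was largest for SLC7A11, at 3.66 with an interval of 3.38 to 3.93. SLC7A2 followed with 2.97 (2.71 to 3.23), SLC7A1 with 1.73 (1.56 to 1.89) and SLC3A2 with 1.70 (1.57 to 1.83). SLC7A5 had 1.39 (1.24 to 1.53) and SLC7A6 had 1.32 (1.05 to 1.60). SLC7A8 had the smallest difference among measured members, at 0.51 with an interval of 0.16 to 0.85. The intervals of 7 of the 8 members left out 0. That of SLC7A7, from -2.45 to 0.53, did not. The share of all genes with such an interval is not given here, so whether this number stands out was not tested. With 1 library per condition these values compare 4 libraries, and the difference between the lines in their response could not be tested.

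The control libraries of the lines were also set side by side, to describe the level from which each line was treated. This comparison uses the JJ012 control and the 143B control, which also serve in the comparisons with melatonin. Of the 7 measured members, 5 had a lower level in JJ012 by at least 0.58 on the log2 scale and 0 a higher one. Of the 16929 genes measured in these libraries, 27.4% were lower and 41.3% higher in JJ012. Other scalings changed this split, to 37.2% lower and 36.2% higher with TPM and to 34.2% and 33.6% with TMM factors, and 6 members were lower under each. The median log2 difference was -1.31 for the members and 0.29 for all genes. The carriers that were lower in untreated JJ012 were SLC7A5 (3.76-fold), SLC7A2 (4.75-fold), SLC7A1 (3.60-fold), SLC7A6 (3.36-fold) and SLC7A11 (3.40-fold) by CPM. SLC3A2 had a log2 difference of -0.57, just under the threshold, and passed it at -0.97 with TPM and at -0.89 with TMM factors. SLC7A8 had 2.99 FPKM in JJ012 and 2.75 in 143B, within counting error, and its sign changed with the scaling.

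The rare members differed between the untreated lines as well. SLC7A3 had 0 counts in the JJ012 control and 34 in the 143B control. It was 13.7-fold lower in JJ012 when the floor of 3 counts is set for the JJ012 library. The exact interval of its ratio reached up to 0.0948. SLC7A7 had 58 counts in the JJ012 control and 8 in the 143B control, 5.99-fold higher in JJ012, with an interval of the ratio of 2.85 to 14.5. SLC3A1 had 3 and 8 counts, with an interval of 0.0530 to 1.29. Cell line and library cannot be told apart in these comparisons.

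The melatonin-treated libraries of the lines were also set beside each other, a comparison added after the values were seen. SLC7A11 was 3.71-fold and SLC3A2 2.13-fold higher by CPM in treated JJ012 than in treated 143B, and SLC7A2 1.65-fold and SLC7A8 1.54-fold. SLC7A7 was 3.08-fold higher in treated JJ012, on 29 and 10 counts, with a log2 interval of 0.55 to 2.83. SLC7A5 was 1.44-fold lower in treated JJ012, SLC7A6 1.34-fold and SLC7A1 1.09-fold. The level of SLC7A1 was thus close in the treated lines, whereas it was 3.60-fold lower in JJ012 than in 143B without treatment. The treated libraries used here also serve in the comparison of melatonin with control within each line.

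Because FPKM are per length, the levels of the heavy chain and its partners could be added within a library. In untreated JJ012, SLC3A2 was at 10.64 FPKM and the 5 light chains summed to 15.57 FPKM, a ratio of heavy to light of 0.683. After melatonin the light chains summed to 37.54 FPKM, 2.41-fold the control, and the ratio of heavy to light was 0.904. In 143B the light chains summed to 46.97 FPKM without and 38.57 FPKM with melatonin, with ratios of heavy to light of 0.346 and 0.413. By these FPKM, SLC3A2 was below the summed light chains in all 4 libraries. FPKM use the exonic length of the gene, 6392 bases for SLC3A2, while the length of the transcripts present was not examined. The ratios of heavy to light depend on the lengths used, and a shorter transcript would stand at a higher level. All these values are transcript levels, from which the amount of assembled carrier does not follow.

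The make-up of the light chains differed between the JJ012 libraries. SLC7A5 held 59.2% of the light chain FPKM in the control and 52.6% after melatonin. SLC7A11 held 7.26% and 27.6%, while SLC7A8 held 19.2% and 8.63%. In 143B, SLC7A5 held 73.9% and 73.6% and SLC7A11 8.15% and 7.23%, so that the make-up of this line was much the same in both libraries.

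The summed level of the cationic transporters was 5.32 FPKM in untreated and 28.92 FPKM in treated JJ012, 5.44-fold higher. In 143B they were at 21.48 and 24.89 FPKM. SLC7A2 held 22.6% of their FPKM in untreated and 49.1% in treated JJ012, and 26.6% and 34.6% in 143B. Added over all 10 members, the counts came to 197.7 CPM in untreated and 686.9 CPM in treated JJ012, and to 527.5 and 508.8 CPM in 143B. The untreated JJ012 library was the lowest of the 4 and the treated JJ012 library the highest.

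**Figure D3:**
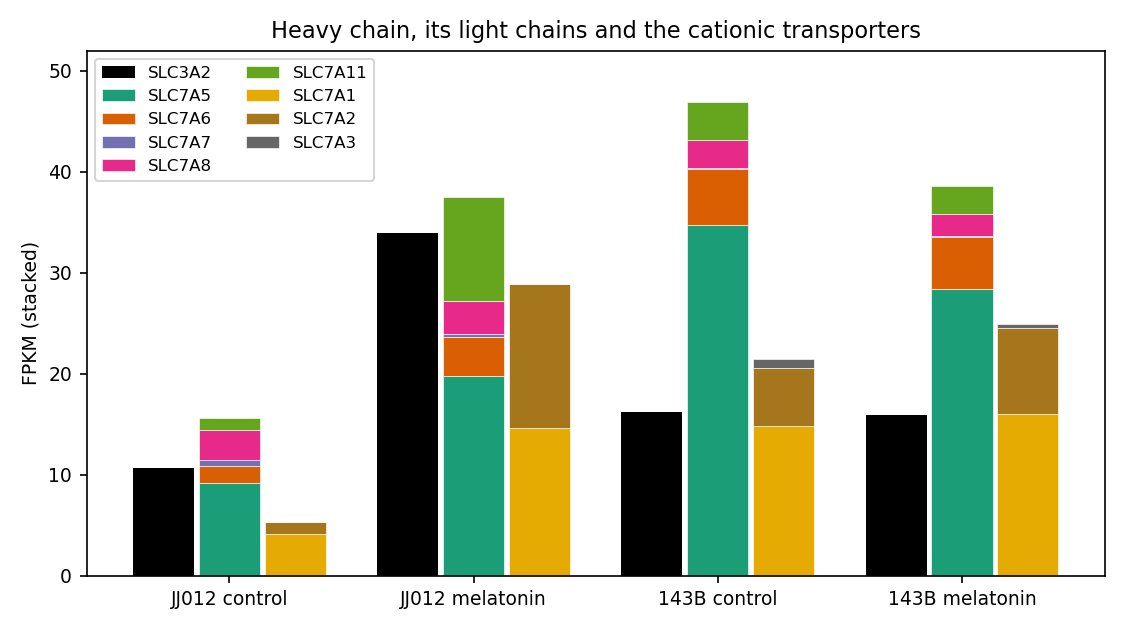
FPKM (y axis, stacked from 0) of the heavy chain SLC3A2 (black), of the 5 light chains and of the 3 cationic transporters in each of the 4 libraries (x axis), with 1 library per bar group. The light chains sum to 15.57, 37.54, 46.97 and 38.57 FPKM from left to right, and the part of SLC7A11 is largest in melatonin-treated JJ012.

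Fold changes in JJ012 followed the exonic length of genes, with a Spearman correlation of 0.24 across the 15794 measured genes, which are not independent replicates. In 143B the correlation was -0.01. The measured members are long, with exonic lengths from 4764 bases for SLC7A5 to 9645 bases for SLC7A11. The running median of all measured genes at these lengths lay between 0.07 and 0.29 in JJ012. With this median taken off, the log2 fold change was 2.52 for SLC7A2, 2.12 for SLC7A11, 1.41 for SLC3A2, 1.36 for SLC7A1, 0.96 for SLC7A5 and 0.60 for SLC7A6. The 6 members that rose thus stayed at or above the threshold, with SLC7A6 close to it, and SLC7A8 was at -0.01.

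**Figure D4:**
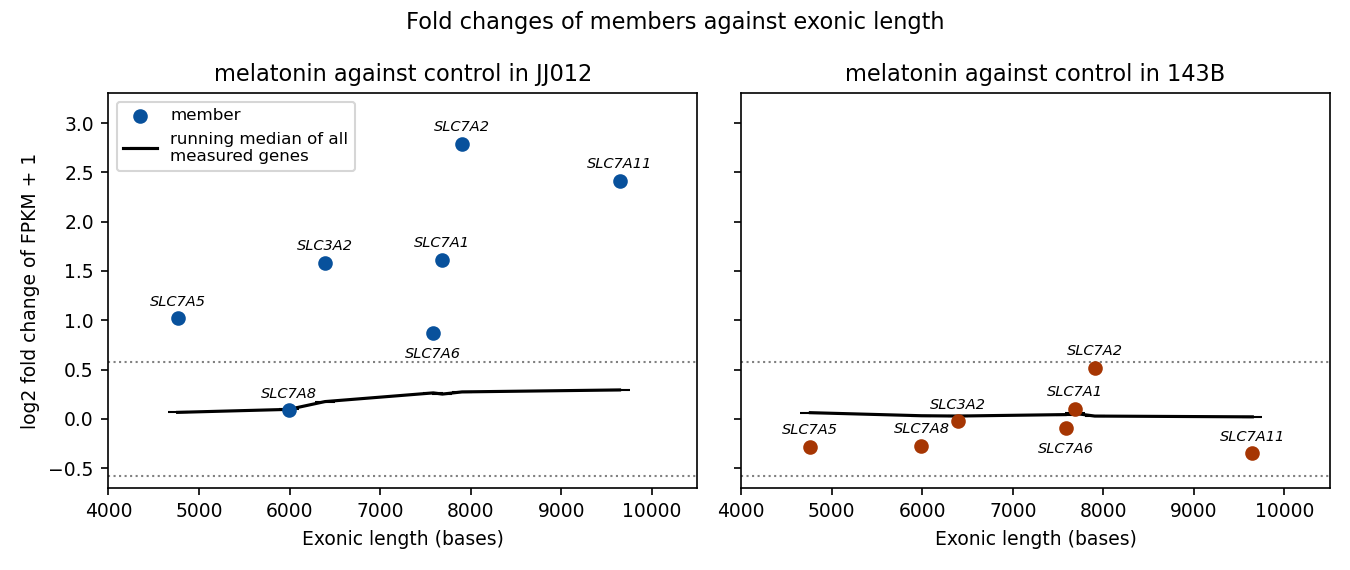
Log2 fold change of FPKM + 1 (y axis) against exonic length in bases (x axis) for the 7 measured members (points), with the running median of all measured genes (black line) and dotted lines at 0.58 and -0.58, for JJ012 on the left and 143B on the right. In JJ012 the members other than SLC7A8 lie above the line by 0.60 to 2.52.

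Among 9217 genes that reached 5 FPKM in any library, the patterns nearest to SLC3A2 were those of MICAL3, WNK1 and TASOR2, by the Euclidean distance between log2(FPKM + 1) values centred over the 4 libraries. Their distances were 0.123, 0.136 and 0.160, and their exonic lengths were 22444, 17280 and 11341 bases. WNK1, a kinase that controls ion transport, was at 9.21 and 26.14 FPKM in JJ012 and at 13.22 and 13.61 in 143B. Of the members, SLC7A11 was nearest to SLC3A2, at 0.63, and SLC7A5 the farthest, at 1.46. A pattern over 4 libraries is matched by many genes, and these distances are a description.

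Members that stand together in JJ012 were also compared in the sequence at their gene starts. RefSeq (GRCh38.p14) windows of 250 bases before to 50 bases after a start were at hand for 6 members, SLC3A2, SLC7A1, SLC7A5, SLC7A6, SLC7A7 and SLC7A8, in 13 windows, some of which overlap. SLC7A2 and SLC7A11, which also rose in JJ012, had no window. The windows at hand thus leave out these members. The windows were searched on both strands for TGATGNAA, the core of the element bound by ATF4 with C/EBP proteins. They were also searched for TGANNNNGC, a broad pattern for the antioxidant response element bound by NRF2. The first was found in 2 of the 13 windows, 1 each of SLC7A1 and SLC3A2, and in 3.62% of all 35116 windows of the table. The second was found in 10 of the 13 windows and in 41.8% of all windows. It was present in a window of SLC7A7 and SLC7A8, which were not among those that rose in JJ012, as in those of the 4 searched members that were.

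The matches of the 4 searched members that rose in JJ012 are printed 5′ to 3′ on the strand of the gene, with the matched letters in capitals. The first pair holds the amino acid response element. In SLC7A1 it begins 7 bases after the first base of the gene, at chr13:29595664-29595691 with its flanks, on the minus strand of the chromosome. In SLC3A2 it lies on the other strand of the gene, 37 bases after a start, at chr11:62881726-62881748.
SLC7A1: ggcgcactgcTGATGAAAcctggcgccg
SLC3A2: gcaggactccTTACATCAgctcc
The second set holds the matches to TGANNNNGC, not all of which need be antioxidant response elements. Those of SLC3A2 lie at chr11:62881652-62881680, 37 bases before the same start, and at chr11:62856038-62856066 and chr11:62856084-62856112, 61 and 15 bases before another start, the last on the other strand. That of SLC7A1 lies at chr13:29595755-29595783, that of SLC7A5 at chr16:87869491-87869519, and those of SLC7A6 at chr16:68264319-68264347 and chr16:68264487-68264515.
SLC3A2: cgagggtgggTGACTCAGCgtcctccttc
SLC3A2: aagcgccaccTGAACTTGCggcgcgaaaa
SLC3A2: acgggagcgtGCTGGCTCAccgaccgcat
SLC7A1: tgcccggcggTGACGCGGCcgagcgggcc
SLC7A5: gcggggttccTGACGCAGCtgcgggcggc
SLC7A6: gctcgagcccTGACGAGGCagctgggggc
SLC7A6: cggcggcgggTGACGTGGCggggcggggc
A match of letters is a description and does not show that a factor binds there.

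The other genes of the SLC7 family were too low to follow. Of 7 listed genes (SLC7A4, SLC7A9, SLC7A10, SLC7A13, SLC7A14 and the SLC7A5 pseudogenes SLC7A5P1 and SLC7A5P2), 0 reached 1 FPKM in any library. Both pseudogenes had 0 counts in all 4 libraries.

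Amino acid transporters of other families formed the next list, with 16 of 24 genes measured in JJ012. Of these, 6 rose and 2 fell, where 19.6% and 18.6% of all measured genes did, with a median log2 fold change of 0.29. By log2 fold change of FPKM + 1, SLC36A1 and SLC6A6 were the highest. SLC36A1, a lysosomal and plasma membrane carrier of small amino acids, went from 2.10 to 5.47 FPKM. SLC6A6, the taurine transporter, went from 58.40 to 108.28 FPKM. By the ratio of CPM, SLC16A10 (2.35-fold), SLC1A4 (2.13-fold) and SLC38A9 (2.01-fold) stood above SLC6A6 (1.85-fold). SLC38A5, a glutamine carrier, fell from 10.82 to 2.21 FPKM and SLC38A3, of the same family, from 1.38 to 0.08 FPKM. In 143B, 0 of 13 measured genes rose and 0 fell, with a median of -0.05, where 6.09% of all measured genes rose and 6.65% fell. SLC38A5 was below 1 FPKM there and so was not counted, with 29 counts in the control and 2 after melatonin, 15.7-fold lower, with an interval of the ratio of 0.00738 to 0.252.

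The list of amino acid response genes holds ATF4, the kinase gene EIF2AK4, and partners and some targets of ATF4 outside the transporters. Of its 18 genes, 17 were measured in each line, though not the same 17. In JJ012, 8 rose and 1 fell, with a median of 0.58, where 19.6% of all measured genes rose and 18.6% fell. With TPM 13 rose and 0 fell, where 34.6% of all measured genes rose and 15.7% fell. DDIT3 (CHOP), a stress-induced transcription factor, went from 44.23 to 162.32 FPKM, and XPOT, which exports tRNA from the nucleus, from 23.22 to 57.37 FPKM. VLDLR, a lipoprotein receptor, fell from 11.89 to 7.14 FPKM. In 143B, 2 rose and 3 fell, with a median of -0.03, where 6.09% of all measured genes rose and 6.65% fell. There ATF5 went from 1.02 to 2.32 FPKM and CHAC1, which degrades glutathione, from 0.46 to 1.22 FPKM on 15 and 43 counts, while CEBPB fell from 64.99 to 34.85 FPKM and DDIT3 from 17.53 to 10.88 FPKM.

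The list of cystine and glutathione genes holds genes of cysteine, glutathione and thioredoxin metabolism, with NRF2, its inhibitor KEAP1 and targets of NRF2. In JJ012, 5 of its 16 measured genes rose, 2 fell and 9 passed the threshold in neither direction, with a median of -0.02, where 19.6% of all measured genes rose and 18.6% fell. CTH, which makes cysteine from cystathionine, went from 5.91 to 15.93 FPKM, and TXNRD1, a thioredoxin reductase that is a known NRF2 target, from 35.52 to 79.47 FPKM. NQO1, another known NRF2 target, fell from 40.53 to 23.94 FPKM, and GGT5, of the gamma-glutamyltransferase family, from 3.77 to 1.29 FPKM. In 143B, 0 of 15 rose and 1 fell, where 6.09% of all measured genes rose and 6.65% fell. The gene that fell was the heme-degrading enzyme HMOX1, from 14.79 to 8.44 FPKM.

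Genes of arginine and polyamine metabolism bear on the use of what the cationic transporters carry. In JJ012, 2 of 15 measured genes rose and 3 fell, with a median of -0.10, near the 19.6% and 18.6% of all measured genes. With TPM the balance turned to 4 that rose and 2 that fell, where 34.6% and 15.7% of all measured genes did. ODC1, the first enzyme of polyamine synthesis, went from 16.33 to 26.65 FPKM and AZIN1, the inhibitor of its antizymes, from 18.61 to 34.37 FPKM. The antizymes OAZ1 and OAZ2 fell, from 151.94 to 77.48 FPKM and from 11.42 to 5.50 FPKM. In 143B, ODC1 alone rose of 14 measured genes, from 11.38 to 20.08 FPKM, and 0 fell. Among all genes measured there, 6.09% rose and 6.65% fell.

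Genes of the sensing of leucine and arginine by mTORC1 formed the last list, with 19 of 20 genes in the table and 17 measured in each line. In JJ012, 0 genes of this list rose and 3 fell, with a median of -0.05. The list leaves out SLC38A9 and SESN2, which also bear on this sensing and were placed in other lists. In JJ012, SLC38A9 rose from 1.86 to 3.74 FPKM, and SESN2 went from 5.67 to 7.71 FPKM, under the threshold. The number of the list that fell is near the 18.6% of all measured genes that fell, while 19.6% of all measured genes rose. With TPM the balance turned to 2 that rose and 1 that fell, where 34.6% and 15.7% of all measured genes did. LAMTOR4 and LAMTOR1, subunits of the Ragulator complex on the lysosome, fell from 19.59 to 8.66 FPKM and from 19.45 to 10.69 FPKM. In 143B, 1 rose and 2 fell, with a median of -0.04, where 6.09% of all measured genes rose and 6.65% fell. SESN3, of the sestrin family, went from 1.44 to 2.79 FPKM, RPTOR, the scaffold of mTORC1, from 11.45 to 5.46 FPKM, and FLCN, which acts on RagC, from 12.37 to 6.87 FPKM.

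**Figure D5:**
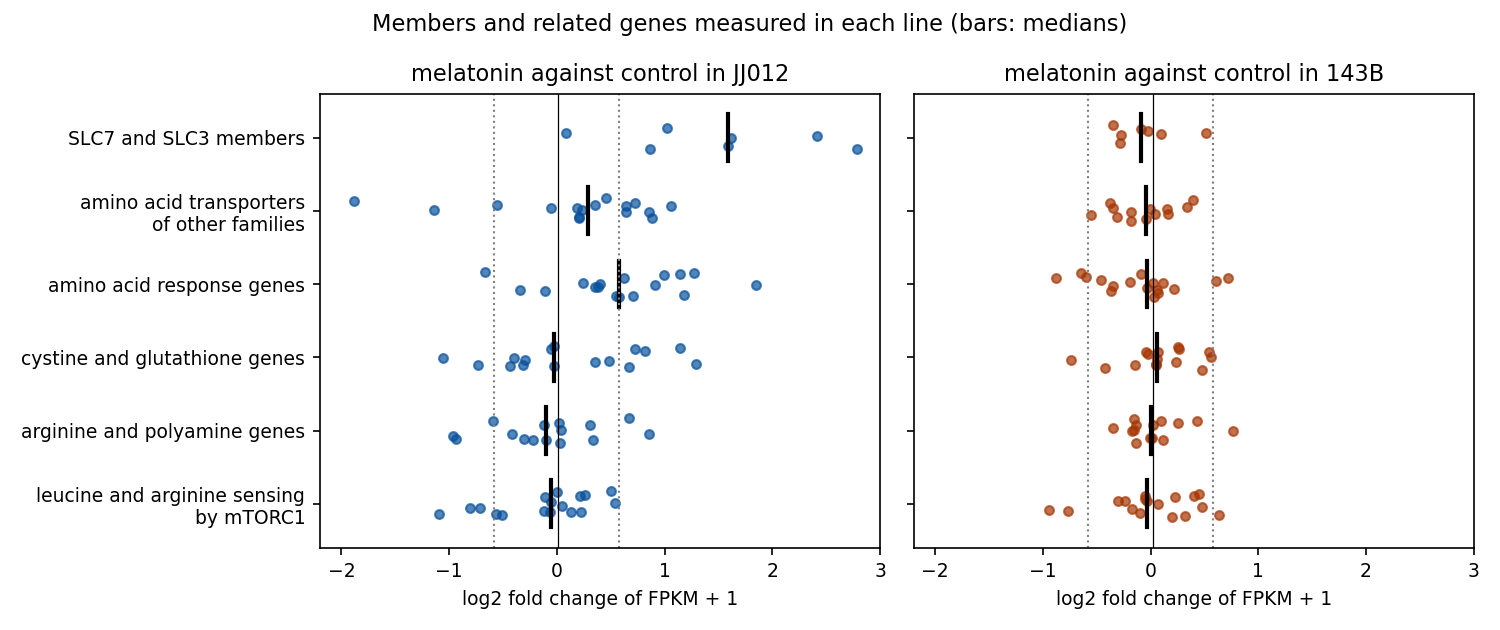
Log2 fold change of FPKM + 1, melatonin over control (x axis), of each measured gene (points) of the SLC7 and SLC3 members and of 5 lists of related genes (y axis), for JJ012 on the left and 143B on the right, with thick bars at the medians, a thin line at the median of all measured genes and dotted lines at 0.58 and -0.58. The median of the members is 1.58 in JJ012 and -0.09 in 143B, and those of the lists lie between -0.10 and 0.58 in JJ012 and between -0.05 and 0.06 in 143B.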

How the data were processed

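RNA of 4 samples was measured as poly(A)-selected, paired-end libraries. Per the submitters' processing notes, cutadapt 1.9.1, HISAT2 2.2.1, HTSeq 0.6.1 and DESeq2 were named with the build hg38. The strand setting and annotation release were not given in the sources used here. The table deposited by the authors held raw counts for each gene, the exonic lengths, and FPKM that equal these counts over exonic length and library total. Library columns were matched by cell line, the suffix T being read as treated. Gene positions overlapped those of GENCODE 29 (GRCh38) for 99.8% of 58254 shared genes.

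Fold changes used a pseudocount of 1 FPKM and genes with at least 1 FPKM in either library. CPM ratios had exact 95% intervals. Intervals and the floor of 3 counts cover counting error only. With 1 library per group no test was run. The members and lists were chosen with earlier results of these data known. Text names all members, and per list and line up to 2 genes highest and 2 lowest past 0.58 whose intervals exclude 0. Other list genes in the text were named after their values were seen. Running medians spanned 501 genes. The alternatives were another pseudocount, filters, TPM, CPM, TMM (edgeR 4.0.16) and size factor (DESeq2 1.42.0) scaling, centring, length correction and a threshold of 1. Intervals and running medians were tested on simulated data. The planned comparison of proteins was not done. Python 3.11.15, numpy 2.4.6, scipy 1.17.1, pandas 2.3.3, matplotlib 3.10.9 and R 4.3.3 were used.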

Additional observations from a re-analysis of the deposited data

Results flagged for a closer look

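For some genes the ratio of CPM, melatonin over control, lay above 1 with its whole counting interval in one line and below 1 in the other. This held for 2 of the 8 members and for 21 of the 84 genes of the related lists that had more than 3 counts in every library. Of the 17 amino acid response genes, 7 were higher in JJ012 and lower in 143B, and 2 the reverse. Each line gave 1 library per condition, so that the difference between the lines was not tested for any of these genes. The same share over all genes is not given here, so whether these numbers stand out was not tested.

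Of the members, SLC7A11 had log2 ratios of 3.20 in JJ012 and -0.46 in 143B, a difference of 3.66, and SLC7A5 had 1.10 and -0.29, a difference of 1.39. Values follow for the list genes that the rule for named genes selected. Of the 9 amino acid response genes, DDIT3 had 1.88 and -0.69 (difference 2.56), CEBPB had 0.64 and -0.90 (1.54), ATF5 had -0.49 and 1.18 (-1.67) and VLDLR had -0.74 and 0.08 (-0.81). The other 5 were ATF3 (0.95 and -0.84), STC2 (1.41 and -0.35), CEBPG (1.05 and -0.38), TRIB3 (1.20 and -0.20) and PHGDH (0.36 and -0.47), named after their values were seen. In the other lists, SLC6A6 had 0.89 and -0.35 (1.24), FLCN had 0.31 and -0.85 (1.16) and LAMTOR1 had -0.86 and 0.36 (-1.22).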

How the results depend on the processing

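The count of members that rose in JJ012 was 6 in the main setting and 5 with a filter of 5 FPKM, which left 5 members measured, or with a threshold of 1, and 0 fell under any of the 10 alternatives. In 143B the count of 0 became 1 with a pseudocount of 0.1 FPKM, through SLC7A2, and was 0 under the other 9. Between the untreated lines 4 to 6 members were lower in JJ012. No called member changed sign. The log2 fold change in JJ012 ranged from 2.12 to 3.18 for SLC7A11, from 2.52 to 3.56 for SLC7A2 and from 0.60 to 1.35 for SLC7A6. With TPM, the median gene of JJ012 moved from 0.01 to 0.27, and 34.6% of measured genes rose and 15.7% fell, against 19.6% and 18.6%. Over the alternatives in JJ012, 4 to 13 amino acid response genes rose (8 in the main setting), 1 to 8 transporters of other families (6), 2 to 7 cystine and glutathione genes (5) and 0 to 4 arginine and polyamine genes (2), while 1 to 4 genes of mTORC1 sensing fell (3). The 7 members whose difference between the lines left out 0 numbered 7 with TMM and size factor scaling too, again without the share over all genes. The ratios of heavy to light chain were the same with TPM by construction. No paired analysis was possible because each group holds 1 library. SLC7A3, SLC7A7 and SLC3A1, with at most 58 counts in a library, are limited by depth.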
